A study of Homo sapiens with 6 samples.

Results

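MER-named LTR elements are repeats of retroviral origin whose consensus sequences carry a MER number, an old label for medium reiterated repeats. Members were taken by name alone: MER, 1 of 35 numbers, and then nothing, a capital letter or the sign _. This rule found 135 of the 1047 sequences quantified (12.9%). They comprised 113 long terminal repeats (LTRs) and 22 internal parts, which were told apart by the I that ends an internal part's name. The files give names only, so the type of endogenous retrovirus was assigned by MER number from general knowledge, which put 110 members in the ERV1 type and 25 in the ERVL type. MER34-int, MER76-int and MER90a_LTR share these numbers but fell outside the rule through a hyphen or a lower-case letter.

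An endogenous retrovirus is a former viral insertion in which an LTR flanks each end of an internal part that once encoded gag, pol and env proteins. Recombination between the flanking LTRs removes the internal part, so most copies in the human genome are solitary LTRs, which can still carry promoter, enhancer and polyadenylation signals. MER41 LTRs are known as interferon-responsive enhancers, MER61 LTRs for p53 sites, and MER39 for a uterine promoter of the prolactin gene. MER50 is the LTR of the group that gave rise to syncytin-2, and the MER34 group includes ERVMER34-1, whose envelope protein is made in placenta and stem cells. The RNA exosome is a complex that removes and matures RNA from the 3′ side, and EXOSC3 encodes a subunit of it.

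All 6 libraries came from H1, an established line of human embryonic stem cells, between passages 40 and 60, and every group carried a doxycycline (dox)-inducible hairpin against EXOSC3 and grew under puromycin and blasticidin. The PB group had that hairpin and an empty vector, and consisted of 1 line with 1 library without and 1 with dox. The EXOSC3r group had the hairpin and a transgene resistant to it, in 2 clones, each with 1 library without and 1 with dox. Libraries were stranded and made from total RNA after removal of ribosomal RNA. EXOSC3 and genes that mark the cell type were not analysed here, so neither the knockdown nor the cell identity was checked.

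Each library held between 3745262 and 5260196 estimated counts over all sequences, and 54500 to 76974 of these fell on the members. The members' share of all counts was lowest in EXOSC3r clone 1 with dox, at 1.04% (95% Clopper-Pearson interval 1.03 to 1.05), and highest in PB cells with dox, at 1.69% (1.67 to 1.70). Alu, the most abundant repeat, took 52.5% of counts in the first of these libraries and 33.0% in the second, the extremes of its range too, and its part in the members' share was not tested. After scaling by TMM, which sets libraries on a common scale from the bulk of the sequences, the members summed to between 13670 and 14140 CPM, counts on a common library size. That sum with dox was 1.01 times the sum without dox in PB cells, 0.985 times in clone 1 and 0.994 times in clone 2. The members were among the sequences that set this scale, so a shift common to the repeats would not show in the sum. Without and with dox, the unscaled share was 1.568% and 1.686% in PB cells, 1.235% and 1.036% in clone 1, and 1.395% and 1.499% in clone 2. Intervals here cover counting error only. Because 91 of the 135 members had estimated counts that were not whole (tolerance 0.001) in some library, the division of reads among related names is uncertain. RNA of a solitary copy, of a provirus and of a copy inside a gene's transcript cannot be told apart in these data, nor can fewer cells with such RNA and less of it per cell.

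Abundance was concentrated in a few names. The 12 most abundant members took 53.5% of the members' reads, and 4 of them were internal parts. By number, MER4 took 32.3%, MER41 14% and MER61 11.6%, whereas all ERVL-type members together took 6.05%. The most abundant member was MER61I, the internal part of the MER61 group, at 1354, 1169, 1465, 1262, 1348 and 1249 CPM in PB, PB with dox, clone 1, clone 1 with dox, clone 2 and clone 2 with dox, an order kept for all values of 6 libraries given here. Among LTRs, MER4A1 was the most abundant, at 827, 896, 850, 779, 842 and 855 CPM. MER41B had 789, 837, 860, 817, 828 and 822 CPM. For these LTRs the highest library exceeded the lowest by little, and neither dox nor the transgene separated the libraries.

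**Figure D1:**
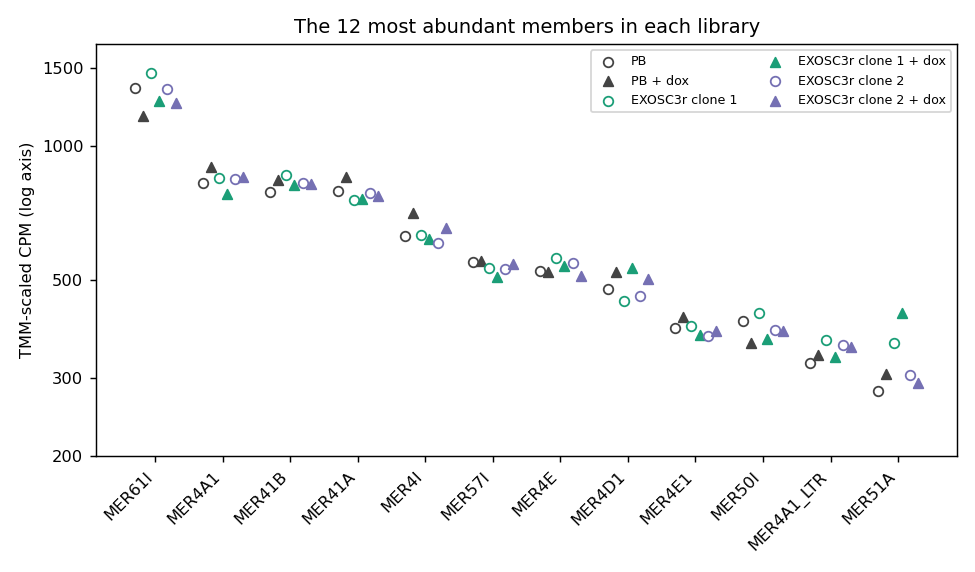
TMM-scaled CPM (log axis) of the 12 most abundant members in each of the 6 libraries, with circles for libraries without dox, triangles for libraries with dox and colours for the 3 lines. MER61I is the highest in every library, and MER51A is higher in both libraries of clone 1 than in the other libraries.

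MER41A, the sister of MER41B, had 794, 852, 758, 761, 784 and 774 CPM, so that all 4 EXOSC3r libraries lay below both PB libraries, by a small margin. MER51A, an ERV1-type LTR, had 281, 308, 359, 422, 305 and 292 CPM, and both libraries of clone 1 stood above the rest. Per kilobase of effective length, the scale on which sequences can be compared, MER4A1 led with 2675 CPM per kb, followed by MER41A (1989) and MER41B (1734). The 8 highest members on that scale were all LTRs, of the MER4, MER41 and MER51 numbers. ERV1-type LTRs had a median of 89.5 CPM per kb and ERVL-type LTRs one of 36.3.

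Internal parts were measured with fewer reads per kilobase than LTRs. The median internal part had 11.0 CPM per kb, against 69.3 for the median LTR. In each of the 19 MER numbers that have both parts, the summed LTRs exceeded the summed internal parts per kilobase in the mean of the 6 libraries. The ratio of LTR to internal signal ran from 4.10 in MER61 and 8.79 in MER34 to 177 in MER31 and 205 in MER21, an ERVL-type group. MER4 (49.5) and MER41 (84.3) lay between. A consensus stands for all its genomic copies, so this ratio depends on how many copies of each part exist as well as on their levels. It also grows with the number of names summed, 11 LTRs and 2 internal parts in MER4, and 6 and 1 in MER61. Of single MER61 LTRs, MER61C (405.1 CPM per kb) exceeded MER61I (258.6). MER61A (258.2), MER61D (169.7), MER61E (93.5), MER61B (89.5) and MER61F (44.9) did not.

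**Figure D2:**
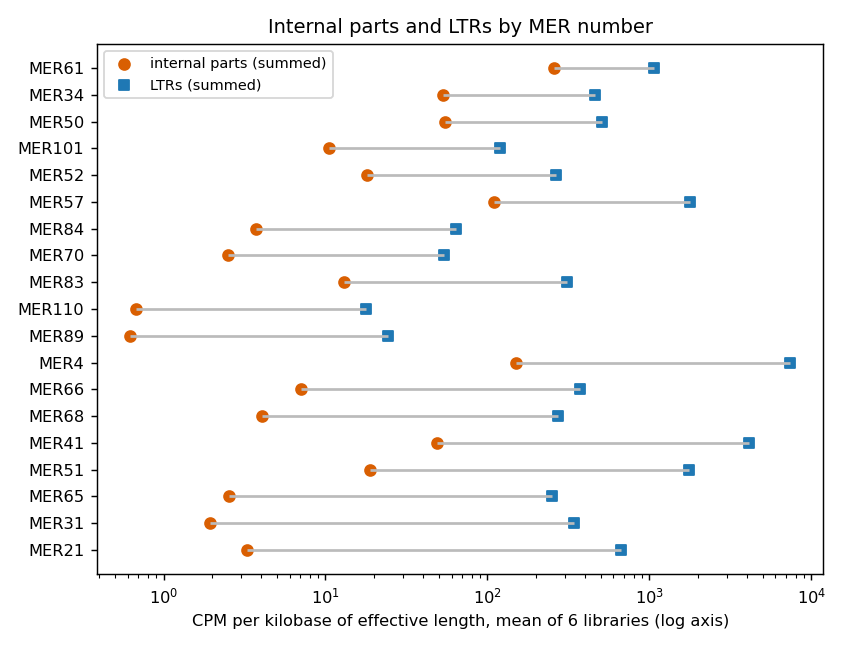
Mean CPM per kilobase of effective length (log axis) of summed internal parts (circles) and summed LTRs (squares) for the 19 MER numbers that have both, ordered by the ratio of the parts. Every square lies to the right of its circle, with the narrowest gap in MER61 (summed LTRs 4.10 times the internal part) and the widest in MER21 (205 times).

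By reads, without the division by length, internal parts exceeded LTRs in 5 of the 19 numbers in the mean of the 6 libraries. MER61I had 4.29 times the reads of the 6 MER61 LTRs, and the ratio was 1.66 in MER101, 1.64 in MER57, 1.42 in MER34 and 1.33 in MER50. MER61, MER101, MER57 and MER50 exceeded 1 in each library, whereas MER34 was 0.900 in PB cells without dox and between 1.34 and 2.18 in the EXOSC3r libraries. MER70 and MER84, under 1 in the mean, reached 1.02 in clone 1 without dox, and MER84 1.04 there with dox. MER61I alone made up 29.8% of all internal reads, and the 5 most abundant internal parts (MER61I, MER4I, MER57I, MER50I and MER4BI) 72.4%. At the other end, MER110I had between 2.25 and 4.35 CPM and MER89I between 2.97 and 5.06. MER4I had 629, 707, 633, 619, 606 and 655 CPM, and MER57I had 548, 551, 533, 508, 529 and 544. Both stayed within a narrow range, although all EXOSC3r values of MER57I lay below both PB values.

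The question addressed by the first comparison is what induction of the hairpin does in cells with the empty vector. None of the 130 members with at least 10 counts in some library passed in PB cells (edgeR quasi-likelihood test, Benjamini-Hochberg adjustment over all 699 tested sequences), where 0.858% of all tested sequences passed. At an unadjusted p under 0.05 there were 6 members (4.62%), against 4.01% of all tested sequences. After adjustment DESeq2 called 0 members and 6 of the 699 tested sequences. Using limma on log2(TPM + 1), which called 0.572% of all tested sequences, 1 member was called, MER93, which was listed at 0 in PB cells without dox. MER93 entered the test only through its counts in PB cells with dox and in clone 1 with dox. The first is the arm where it is high here, so this call supports nothing. The median log2 change of the members was 0.015 and that of all tested sequences 0.004. Each PB arm had 1 library, so the spread in this test came from the EXOSC3r clones, and its p-values measure the spread between clones only.

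The smallest p belonged to MER68B, an ERVL-type LTR, with 22.3 CPM in PB cells and 10.2 with dox, 21.6 and 12.1 in clone 1, and 15.6 and 13.0 in clone 2. Its log2 difference in PB cells was -1.14 ± 0.35 (SE; edgeR, adjusted p = 0.912), and the value with dox was the lower in each line. Its relative MER68A was the higher with dox in each line, at 78.8 and 87.7, 102 and 112, and 88.4 and 97.8 CPM. The sum of both was flat: 101.1 and 97.9 CPM in PB cells, 124 and 125 in clone 1, and 104 and 111 in clone 2. These names split reads between them: neither had whole counts in PB cells (114.1 and 403.9), but their sum was 518.0.

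MER83C, an ERV1-type LTR, had 8.87 CPM in PB cells and 17.8 with dox, a log2 difference of 1.01 ± 0.32 (edgeR, adjusted p = 0.912). In the clones it stayed between 11.6 and 12.4 CPM in all 4 libraries. The 3 LTRs of the number 83 summed to 72 and 82 CPM in PB cells. MER4CL34, a MER4 LTR with whole counts, had 71, 132, 73, 71, 60 and 81 counts, or 13.9, 23.8, 18.1, 18.2, 15.0 and 19.7 CPM. Its PB value with dox was the highest of the 6, and its log2 difference was 0.78 ± 0.29 (edgeR, adjusted p = 1.0).

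MER72 had 71.6 and 48.5 CPM in PB cells without and with dox, a log2 difference of -0.56 ± 0.22 (edgeR, adjusted p = 1.0), and between 45.1 and 55.4 CPM in the clones. The library that stood apart was thus PB without dox. MER72B went the other way, with 25.0 and 37.1 CPM, and the sum of both was 96.6 and 85.6. MER4D_LTR, one of the abundant LTRs here, had 167 and 202 CPM in PB cells (log2 0.28 ± 0.11). MER90 rested on 4.25 and 17.0 counts. None of the 6 had an adjusted p under 0.912.

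With the resistant transgene present, dox again left no member past the threshold (edgeR, adjusted over 699), against 0.143% of all tested sequences. At an unadjusted p under 0.05 there were 3 members (2.31%), against 3.15% of all tested. After adjustment DESeq2 called 0 members and 4 of the 699 tested sequences. With limma on log2(TPM + 1), 1 member, MER57E2, and 0.286% of all tested sequences were called. The members' median log2 change was -0.011 and that of all tested sequences 0.005.

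MER4D1, an abundant MER4 LTR, had 477 and 521 CPM in PB cells, 447 and 532 in clone 1, and 461 and 503 in clone 2 without and with dox. The mean over clones was 454 ± 9.47 CPM (SD, n = 2 clones) without and 517 ± 20.7 with dox, a log2 difference of 0.19 ± 0.07 (edgeR, adjusted p = 1.0). Values with dox were higher in all 3 lines, and all 3 dox libraries exceeded all 3 libraries without it. How often the dox states separate in this way among all tested sequences was not counted, for this or other members. MER4D1 counts were not whole in some library. Summed with MER4D and MER4D_LTR, which are named alike, they gave 932 and 987 CPM in PB cells, 882 and 978 in clone 1, and 945 and 945 in clone 2. MER41D, a low-abundance MER41 LTR with whole counts, had 87 and 68, 70 and 38, and 77 and 55 counts. In CPM these were 17.0 and 12.3, 17.3 and 9.71, and 19.3 and 13.4, lower with dox in each line and with no overlap between the dox states. Its log2 difference was -0.66 ± 0.25 in EXOSC3r cells (edgeR, adjusted p = 1.0) and -0.47 ± 0.34 in PB cells.

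The smallest p in this comparison, 0.0137 before and 0.897 after adjustment in edgeR, belonged to MER57E2. It was listed at 0 in 4 libraries and had 5.45 and 16.1 estimated counts in the dox libraries of clones 1 and 2. It entered the test only through the count in clone 2 with dox, the group where it is high. Its p in edgeR and its call in limma therefore support nothing, and no fold is given for it. With MER57E1 and MER57E3, which are named alike, it summed to 66.7 and 71.4 CPM in PB cells, 58.8 and 66.4 in clone 1, and 65.7 and 64.8 in clone 2. MER74, an ERVL-type LTR, had 7.11, 7.77, 1.40, 1.27, 1.43 and 18.8 counts, and a single library, clone 2 with dox, carried its difference.

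**Figure D3:**
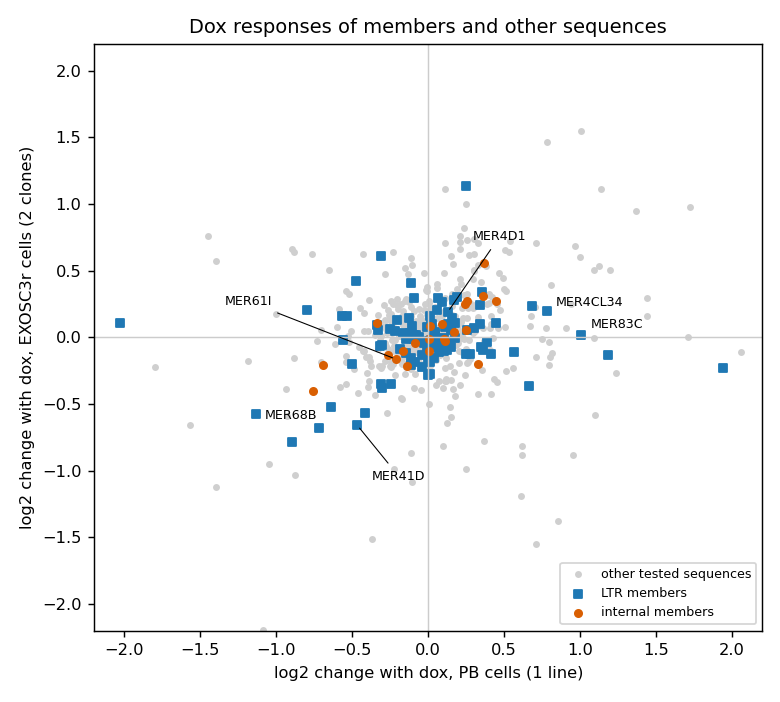
Log2 change with dox in PB cells (1 line) against that in EXOSC3r cells (2 clones) from the edgeR fit, for LTR members (squares), internal members (orange circles) and other tested sequences (grey), with 6 members labelled. Members lie around the origin among the other sequences, and 3 members beyond 2.2 on an axis (MER57E2, MER74 and MER93) are not drawn.

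Agreement of sign across the lines was no more frequent among the members than among all tested sequences on the higher side. With dox, 19 of 130 members (14.6%) were higher in all 3 lines, against 16.6% of all tested sequences. On the lower side the count was 24 (18.5%), against 15.7%. Internal parts gave 4 of 22 on the higher side (18.2%) and LTRs 15 of 108 (13.9%). The lower side held 7 of 22 internal parts (31.8%) and 17 of 108 LTRs (15.7%), and neither difference was tested. The 7 internal parts were MER61I, MER50I, MER4BI, MER52AI, MER66_I, MER31_I and MER83AI.

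MER61I was the clearest of these in reads. Its value with dox was below that without in PB cells (1169 against 1354 CPM), in clone 1 (1262 against 1465) and in clone 2 (1249 against 1348), and the dox states did not overlap. The log2 difference was -0.21 ± 0.10 in PB cells (edgeR, adjusted p = 1.0) and -0.16 ± 0.07 in EXOSC3r cells (edgeR, adjusted p = 1.0). The 6 MER61 LTRs summed to 286 and 309 CPM in PB cells, 329 and 326 in clone 1, and 297 and 283 in clone 2. They did not share the sign in all lines.

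MER50I, the internal part of the syncytin-2 group, had 404 and 361 CPM in PB cells, 421 and 367 in clone 1, and 386 and 384 in clone 2. Its log2 differences were -0.16 ± 0.10 and -0.10 ± 0.07, and clone 2 moved least. MER52AI had 137 and 114, 124 and 118, and 139 and 122 CPM, with every dox value below every value without dox. Among LTRs the same-sign pattern with the largest smallest change was that of MER41D, followed by MER50C, MER110A, MER57C1 and MER68B on the lower side. MER50C had 10.2 and 7.59, 12.6 and 8.44, and 10.01 and 6.82 CPM.

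On the higher side the members with the largest smallest change were MER110I, MER88, MER57E3, MER51D and MER68A. MER57E3 had 32.4 and 37.0 CPM in PB cells, 29.7 and 36.0 in clone 1, and 27.3 and 34.3 in clone 2. MER110I, MER88 and MER51D had under 6 CPM in each library. MER39 and MER39B, LTRs of the prolactin promoter group, together had 203 and 213, 197 and 210, and 199 and 226 CPM. Each of this pair was higher with dox in all 3 lines, and neither passed the edgeR test.

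The share of internal parts in the members' reads was 31.8% in PB cells without dox (95% Clopper-Pearson interval 31.5 to 32.2) and 30.8% with dox (30.5 to 31.2). In clone 1 it was 32.6% (32.2 to 33.0) and 31.6% (31.2 to 32.0), and in clone 2 it was 31.8% (31.4 to 32.2) and 31.6% (31.2 to 32.0). The share with dox was thus lower by 1.01 percentage points in PB cells, by 1.00 in clone 1 and by 0.18 in clone 2, the last within counting error. These intervals do not cover the spread between libraries, and the clones without dox already stood apart, at 32.6% and 31.8%. Without MER61I, an exclusion chosen after its values were seen, the shares were 24.39% and 24.47% in PB cells, 24.82% and 24.80% in clone 1, and 24.39% and 24.75% in clone 2. The value with dox was then the higher in PB cells and clone 2.

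**Figure D4:**
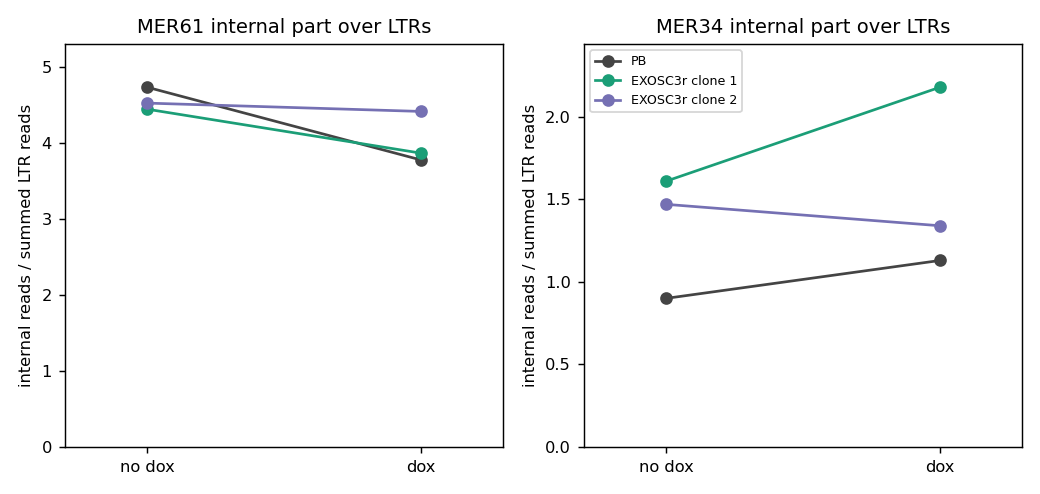
Reads of the internal part divided by the summed reads of the LTRs for MER61 (left) and MER34 (right), without and with dox, 1 line per cell line, on linear axes from 0. The MER61 ratio is lower with dox in all 3 lines (4.74 to 3.78 in PB cells), and the MER34 ratio is lowest in PB cells at both dox states.

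Whether the response differs with the transgene was tested as the PB change minus the EXOSC3r change. Neither any member nor any other tested sequence passed (edgeR, 0.0% of 699). DESeq2 called 0 members and 3 of the 699 tested sequences. With log2(TPM + 1), limma called 2 members, MER57E2 and MER93, and 0.429% of all tested sequences. MER57E2 entered the test only through clone 2 with dox, and MER93 only through PB cells and clone 1 with dox. These are libraries where each is high, so the calls support nothing. At an unadjusted p under 0.05 there were 3 members (2.31%), against 1.29% of all tested sequences. They were MER4D_LTR (log2 difference of the responses 0.40 ± 0.14), MER101B (1.03 ± 0.40) and MER83C (0.99 ± 0.40), each with an adjusted p of 1.0 in edgeR.

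MER4D_LTR had 167 and 202 CPM in PB cells without and with dox, 182 and 168 in clone 1, and 177 and 160 in clone 2. The value with dox was the higher in PB cells and the lower in both clones. Together with MER4D and MER4D1, which are named alike, it had 932 and 987 CPM in PB cells, 882 and 978 in clone 1, and 945 and 945 in clone 2. MER101B, an ERV1-type LTR with whole counts, had 56 and 96 counts in PB cells, 53 and 41 in clone 1, and 49 and 38 in clone 2. The PB library with dox was the single high one.

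The next comparison sets the transgene clones against the empty-vector line. These are different lines, so the transgene and the line cannot be told apart. Without dox, 0 of 130 members passed (edgeR, adjusted over 699) and 0.0% of all tested sequences did. DESeq2 called 0 members and 0 of the 699 tested sequences. In limma on log2(TPM + 1), 1 member, MER93, and 0.286% of all tested sequences were called. MER93 was listed at 0 in the PB library without dox and had under 10 counts in both clones without dox. At an unadjusted p under 0.05 there were 2 members (1.54%), MER72 and MER34B_I, against 2.29% of all tested sequences. With dox, 0 members passed in edgeR, against 1.0% of all tested sequences. DESeq2 called 0 members and 7 of the 699 tested sequences with dox. Under limma on log2(TPM + 1), 1 member, MER57E2, and 0.572% of all tested sequences were called. MER57E2 entered the test only through clone 2 with dox, where it is high, so this call supports nothing. Here 7 members (5.38%) had an unadjusted p under 0.05 in edgeR, against 7.58% of all tested sequences, and the smallest adjusted p among members was 0.61. Lower in EXOSC3r cells were MER4D_LTR (log2 -0.30 ± 0.10), MER101B (-0.81 ± 0.28) and MER61B (-0.52 ± 0.21). The others, MER34B_I, MER34, MER83AI and MER57E2, were higher.

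MER34B_I, the internal part of the number 34 within the name rule, had counts that were not whole in some library. It had 187 CPM in PB cells, 221 in PB cells with dox, 304 and 403 in clone 1, and 262 and 272 in clone 2. All 4 EXOSC3r libraries exceeded both PB libraries, and clone 1 with dox was the highest. The EXOSC3r mean was 283 ± 29.9 CPM (SD, n = 2 clones) without dox and 337 ± 92.6 with dox. The log2 difference from PB cells was 0.60 ± 0.23 without dox (edgeR, adjusted p = 0.971) and 0.61 ± 0.23 with dox (edgeR, adjusted p = 0.61).

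Single clone libraries moved the value with dox. It was 0.87 ± 0.14 without clone 2 with dox (edgeR, adjusted p = 0.0147) and 0.30 ± 0.15 without clone 1 with dox. Each of these fits compares 1 library with 1 library and takes its spread from the 2 EXOSC3r libraries without dox alone, so its SE and p assume that lone libraries vary like those. In the first of these fits, 3.02% of all 696 tested sequences had an adjusted p under 0.05. The 7 MER34 LTRs did not share the difference: they summed to 207, 196, 189, 185, 178 and 203 CPM. The reads of MER34B_I over those of the LTRs were 0.900 and 1.13 in PB cells, 1.61 and 2.18 in clone 1, and 1.47 and 1.34 in clone 2, with no overlap between PB and EXOSC3r libraries. Of the LTRs, MER34 was the one with all EXOSC3r values above both PB values, at 10.6, 9.93, 13.8, 17.8, 12.3 and 16.9 CPM (log2 0.80 ± 0.28 with dox, edgeR, adjusted p = 0.61). MER34B and MER34C had all EXOSC3r values below both PB values. MER34-int, the internal sequence outside the name rule, had between 8 and 26 counts and did not follow MER34B_I, at 2.34, 3.61, 6.44, 3.58, 3.75 and 1.95 CPM.

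**Figure D5:**
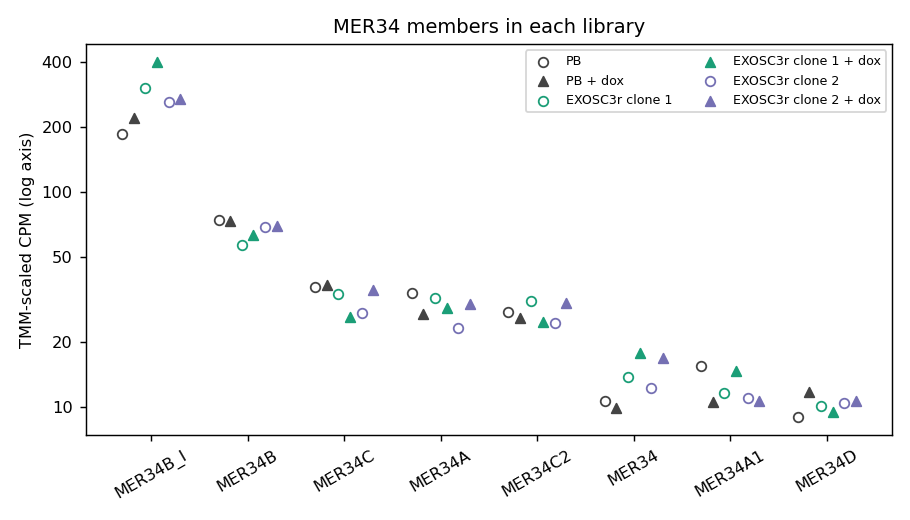
TMM-scaled CPM (log axis) of the 8 MER34 members in each of the 6 libraries, with circles for libraries without dox, triangles for libraries with dox and colours for the 3 lines. MER34B_I lies between 187 and 221 CPM in PB cells and between 262 and 403 CPM in the EXOSC3r libraries, whereas MER34B is lower in each EXOSC3r library than in PB cells.

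Of the 130 tested members, 13 (10%) had all 4 EXOSC3r libraries above both PB libraries, against 11.6% of all tested sequences, and another 13 (10%) had them below, against 10.3%. Internal parts made up 4 of the first 13 (MER34B_I, MER101_I, MER65I and MER83AI) and 1 of the second (MER57I). MER101_I had 59.4, 63.2, 72.9, 73.4, 64.3 and 73.4 CPM, a log2 difference of 0.21 ± 0.16 both without and with dox. MER83AI was low, with 22.1, 14, 37, 31.1, 31.3 and 20 counts, and its log2 difference with dox was 1.33 ± 0.52 (edgeR, adjusted p = 0.61).

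MER57D, a MER57 LTR, had 23.5, 18.6, 37.8, 47.6, 31.7 and 24.9 CPM, higher in each EXOSC3r library than in PB cells. Its log2 difference with dox was 0.96 ± 0.40 (edgeR, adjusted p = 0.61). This was 1.35 ± 0.27 without clone 2 with dox (edgeR, adjusted p = 0.0355) and 0.41 ± 0.29 without clone 1 with dox, again with a spread from the 2 EXOSC3r libraries without dox alone. MER57B2, of the same number, went the other way with 60.2, 64.8, 38.3, 33.95, 56.0 and 53.7 CPM, and clone 1 was the lowest. All MER57 LTRs summed to between 446 and 493 CPM.

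MER92B, an ERV1-type LTR with whole counts, had 73 and 80 counts in PB cells, 35 and 42 in clone 1, and 33 and 30 in clone 2. In CPM these were 14.2 and 14.5, 8.67 and 10.7, and 8.25 and 7.31, so that the groups did not overlap. The log2 difference was -0.75 ± 0.34 without dox (edgeR, adjusted p = 0.971) and -0.68 ± 0.33 with dox (edgeR, adjusted p = 0.707). The value with dox was -0.43 when clone 2 with dox was left out. Relative to all tested sequences, it ran from -0.98 to -0.43 across the alternatives. The abundant MER41A, MER50 and MER51B were also below both PB values in all EXOSC3r libraries. For MER41A the log2 difference was -0.04 ± 0.08 without and -0.15 ± 0.08 with dox.

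The median SE was larger in groups of members with fewer reads, although single members departed from this. MER51A, with a mean of 328 CPM, had an SE of 0.25 in PB cells, and MER50B, with 67.3 CPM, one of 0.17. For the 34 members with a mean of at least 100 CPM, which held 80.9% of the members' reads, the median SE of the log2 dox change was 0.13 in PB cells and 0.09 in EXOSC3r cells. Their changes lay between -0.32 and 0.28 in PB cells and between -0.18 and 0.25 in EXOSC3r cells, so 0 of the 34 went beyond 0.5. The 71 members between 10 and 100 CPM had median SEs of 0.29 and 0.21. For the 25 tested members under 10 CPM these were 0.60 and 0.48, and changes of that size were not detectable there. Above 10 CPM larger changes did not pass either, such as those of MER83C (1.01 ± 0.32) and MER68B (-1.14 ± 0.35) in PB cells. Just inside the count filter were MER66D and MER76 with at most 10 counts, MER93 with 11.1 and MER92C with 12. Outside it were MER70B with at most 6.69 counts, MER70C and MER92A with 6, MER68C with 1 and MER110, which was listed at 0 in every library.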

How the data were processed

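RNA from 6 libraries (PB and 2 EXOSC3r clones, each without and with dox) was analysed. Reads passed through bcl2fastq 2.17, Trimmomatic 0.36 and Salmon 0.13.0, per the submitters' processing notes; the salmon index, its options and a genome build are not given in the sources used here. For each of 1047 sequences the deposited tables list, per the file headers, length, effective length, TPM and estimated count. The authors' estimated counts are not normalised, and the deposited TPM values are relative to these sequences alone.

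The members and lists were chosen with earlier results of these data known. Estimated counts were rounded for the test, edgeR 4.0.16 (R 4.3.3): quasi-likelihood, TMM scaling, 4 group means, 2 residual degrees of freedom, and Benjamini-Hochberg adjustment at 0.05 over the 699 of 799 detected sequences that had at least 10 counts in some library. The biological coefficient of variation was 12.2%. The SE is the log2 change divided by the square root of F. CPM used unrounded counts and TMM-scaled totals. The code was tested on simulated data.

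Both libraries of a clone come from 1 cell line, so clone numbers pair them; the clones' deviations without and with dox correlated at 0.0615 over 130 members and 0.15 over 699 sequences. Alternatives were DESeq2 1.42.0 and its size factors, total counts, other count filters, limma 3.58.1 on log2(TPM + 1) and log2(TPM + 0.1), the line as a block, leaving out each clone library, and sums by MER number. Named members were all internal parts, the 12 most abundant and 8 highest per kilobase, those with the 5 smallest p in each direction of each comparison, the 5 with the largest same-sign dox change in each direction, those next to the count filter, and members numbered 4, 21, 34, 39, 41, 50, 52, 57, 61 or 84.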

Additional observations from a re-analysis of the deposited data

How the results depend on the processing

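In 59 of 70 combinations of an alternative and a comparison the count of members called stayed at 0. With limma on log2(TPM + 1) it was 1 for dox in PB cells, 1 for dox in EXOSC3r cells, 2 for their difference, 1 for EXOSC3r minus PB with dox and 1 without dox, and with limma on log2(TPM + 0.1) it was 1, 1, 2, 2 and 1, of 5, 4, 7, 7 and 2 called among all 699 sequences. All of these were MER57E2 or MER93, which are listed at 0 in some libraries. MER93 had 0, 10.9, 4.61, 11.1, 9.26 and 0 counts. Both entered the test only through libraries with dox in which they are high, so no weight is put on these calls. Leaving out 1 clone library gave 0 to 2 members for EXOSC3r minus PB with dox (2 without clone 2 with dox, MER34B_I and MER57D, of 21 called among 696 sequences, with 1 library in each arm and the spread taken from the 2 EXOSC3r libraries without dox) and 0 otherwise. With the line as a replicate block, which has 1 residual degree of freedom, 0 members passed in the 5 comparisons, so the block changed no member's call. Over all 699 tested sequences it did change calls. There 7, 9, 3, 22 and 0 were called in the same order, against 6, 1, 0, 7 and 0 without the block. The members' median log2 change minus that of all tested sequences was 0.011, -0.016, 0.037, -0.035 and -0.016 in the same order. It was 0.024 for dox in PB cells and 0.012 for the difference with each MER number summed, 0.050 for the difference with at least 10 counts in all libraries, and -0.057 and -0.006 for EXOSC3r minus PB with and without dox under limma on log2(TPM + 1). Leaving out clone libraries gave 0.010 to 0.011, -0.030 to -0.010, 0.018 to 0.034, -0.052 to -0.028 and -0.018 to 0.002; the cause was not tested. Internal parts took 31.7% of the members' reads in the median library, 0.459% of all counts, 3.41% per kilobase, and 24.6% without MER61I, an alternative chosen after seeing the data, like leaving out the 4 most abundant sequences, which called 0 members. Scaling to total counts shifted all tested sequences by -0.40 (log2) for EXOSC3r minus PB with dox and by -0.27 without; values of named members were compared relative to such shifts. For members that passed no test, a change of sign was not counted as a reversal.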
